A study of Mus musculus with 8 samples.

Results

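Rarres2 encodes chemerin, and Cmklr1, Ccrl2 and Gpr1 encode the receptors that bind it. These 4 genes, of 35498 with an annotation in the RNA sequencing tables, are described here across all 4 groups of a Mif loss study in mouse sarcoma cells. Rarres2 was selected on its measured level, which was low in sgMif cells relative to sgSCR cells, and the receptors were added as its partners. Members in sgMif against sgSCR, and in shSCR against sgSCR which shares the sgSCR libraries, are therefore described without a test. Of the 4 genes, 3 passed the filter on low counts and Gpr1 did not.

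The tumour cells of all 4 groups descend from C57BL/6 mesenchymal stem cells that lack p53 (p53-/-) and overexpress Ccne1 (Ccne1+), so the controls carry both changes too. They had formed tumours in primary mice before the Mif constructs were added. sgMif cells (labelled Mif-knockout) carried Cas9 and a guide RNA to Mif, and sgSCR cells (labelled Mif-WT) carried Cas9 and a control guide. Cells labelled shMif (Mif-knockdown) carried a hairpin RNA to Mif, and shSCR cells (also labelled Mif-WT) carried a control hairpin. The series' design text also lists Cas9 for the hairpin cells, while the growth protocol names it for the guide cells. Polyurethane scaffolds seeded with the cells were placed subcutaneously in secondary recipients, and tumour cells were sorted on a fluorescent marker whose name the labels do not state. Each group had 2 libraries. The labels do not state the age of the mice, or whether paired libraries represent separate mice or clones. A p-value here thus measures library-to-library spread, which can be technical.

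Chemerin is secreted as a precursor with little activity, and proteases of coagulation and inflammation trim its C-terminal end to make the active attractant. Cmklr1 is the main signalling receptor, found on macrophages, dendritic cells and natural killer cells. Ccrl2 binds chemerin without known signalling and holds it at the cell surface, and Gpr1 binds it with weaker signalling. Rarres2 is best known from liver and adipose tissue, and in several tumour types it is expressed at lower levels than in the normal tissue.

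The region of Rarres2 that decides activity is shown first, because the protein's last residues are what the proteases remove. Rarres2 (ENSMUSG00000009281.6) lies on the minus strand at chr6:48569696-48572789 of mm10. The coding sequence of transcript Rarres2-204 spans chr6:48569952-48572267 over its exons and has 489 bases with its stop codon, or 162 codons. Its last part, the 108 coding bases of exon 5 (chr6:48569952-48570059), is given from GENCODE release M21, 5′ to 3′ on the minus strand. Capitals mark the 6 codons after codon 156, which encode the end that is absent from active chemerin.
Rarres2-204 exon 5: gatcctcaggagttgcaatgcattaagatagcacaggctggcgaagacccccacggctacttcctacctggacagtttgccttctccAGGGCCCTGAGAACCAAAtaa

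The annotation holds a long and a short coding form, which differ by 3 bases at the border of exons 4 and 5 (chr6:48570030-48570273, exonic parts only). The long form, in Rarres2-201 and Rarres2-203, has 163 codons. Capitals mark the 3 bases that it has in addition, and both forms end in the same 6 codons.
Rarres2-203: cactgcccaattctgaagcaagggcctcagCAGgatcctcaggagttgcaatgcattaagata
Rarres2-204: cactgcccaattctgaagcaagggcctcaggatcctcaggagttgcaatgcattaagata

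The libraries held 19042235 to 51819308 estimated reads each. Normalised levels in CPM (read counts relative to library size) compare libraries, and levels in TPM, which account for transcript length, compare genes. Mif itself had 221 and 222 CPM in sgMif, against 377 and 455 CPM in sgSCR. It had 277 and 222 CPM in the libraries labelled shMif, against 170 and 375 CPM in shSCR. Both libraries labelled shMif lay between the shSCR libraries, so the knockdown was not visible beyond the spread. Replicate libraries differed by more than sampling noise in all 4 groups. Counts over 1406 olfactory receptor genes, which these cells are not known to use, divided the libraries into 5 above 1000 CPM and 3 below. The 5 were sgMif library 1, both sgSCR libraries, shMif library 1 and shSCR library 1. Mesenchymal stem cell markers summed to 1854 to 2983 CPM over all libraries, and the leukocyte gene Ptprc had 6.73 to 24.8 CPM.

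The ligand gene Rarres2 stood at one level in sgSCR and at much lower levels in the other 3 groups. It had 87 and 101 estimated reads in sgMif, against 1891 and 654 in sgSCR. It had 203 and 186 reads in the libraries labelled shMif, against 117 and 155 in shSCR. Normalised, Rarres2 was at 3.97 and 2.28 CPM in sgMif, against 47.6 and 32.6 CPM in sgSCR. The sgMif and sgSCR libraries did not overlap, and the fitted level was 13.0-fold lower in sgMif (log2 fold change -3.70 ± 0.42, SE). With 2 libraries in each group, a lack of overlap alone shows little, here and below. The share of all genes without overlap was not computed. Over all 16309 genes tested, 0.987% passed an adjusted p of 0.05 in sgMif against sgSCR (0.368% higher and 0.619% lower), and nothing is read from the place of Rarres2 among them. In bulk samples, fewer cells of a type and less RNA per cell cannot be told apart.

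The libraries labelled shMif had 10.5 and 5.29 CPM of Rarres2, against 3.03 and 3.13 CPM in shSCR. Both libraries labelled shMif were above both shSCR libraries, with means of 7.87 ± 3.65 CPM in those labelled shMif and 3.08 ± 0.066 CPM in shSCR (SD, n = 2 each). The fitted level was 2.54-fold higher (log2 1.34 ± 0.39, SE), and this did not pass in edgeR's quasi-likelihood test with Benjamini-Hochberg adjustment over all genes (adjusted p = 0.456). The call depended on the processing: without a filter on low counts the log2 fold change was 1.31 with an adjusted p of 0.00105 in edgeR. Within the 5 libraries of high olfactory receptor counts it was 1.78, which sets 1 library against 1 and is no test of the groups. In the high class Rarres2 had 10.5 CPM in the library labelled shMif and 3.03 CPM in shSCR, and in the low class 5.29 CPM in the library labelled shMif and 3.13 CPM in shSCR.

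The control groups differed from each other as widely as sgMif differed from sgSCR. shSCR was at 3.03 and 3.13 CPM of Rarres2, against 47.6 and 32.6 CPM in sgSCR, which is 13.0-fold lower (log2 -3.70 ± 0.42, SE). With a term for the olfactory receptor class the log2 difference was -3.38. Both comparisons use the same sgSCR libraries, so they are not independent. The group mean was 3.12 ± 1.20 CPM in sgMif and 40.1 ± 10.6 CPM in sgSCR (SD, n = 2 each), which places the groups, from low to high, as shSCR, sgMif, shMif and sgSCR. The shSCR libraries lay inside the range of the sgMif libraries, so these neighbours in the order did not differ beyond their spread. The lowest library labelled shMif was above the highest sgMif library, and the highest was below both sgSCR libraries.

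**Figure D1:**
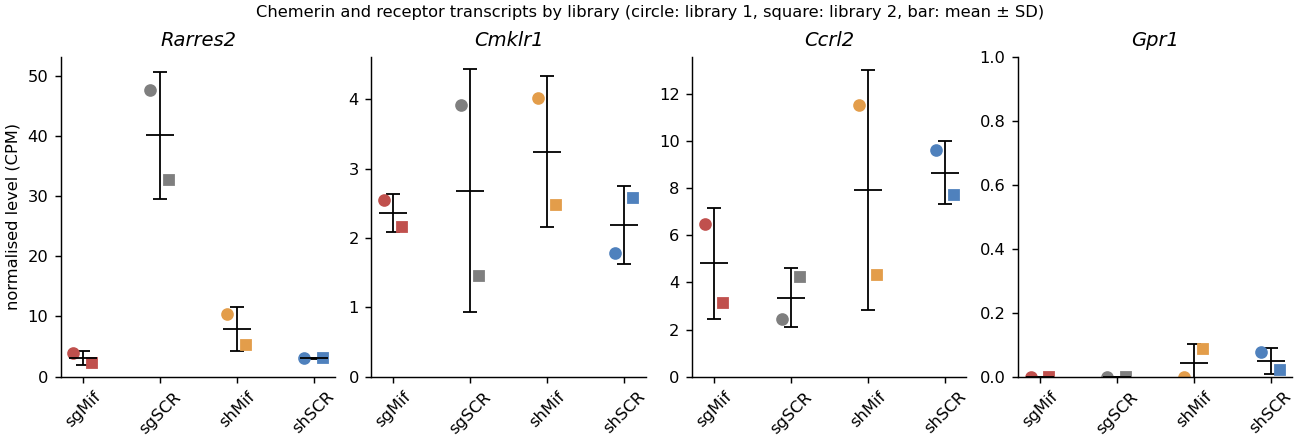
Normalised level in CPM of each gene by group, with a circle for library 1, a square for library 2 and bars for mean ± SD; each panel has its own axis. Rarres2 in sgSCR, at 47.6 and 32.6 CPM, stands above the other 6 libraries, while the Cmklr1 groups overlap and Gpr1 is at or near 0.

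On the length-corrected scale Rarres2 was at 8.18 and 4.86 TPM in sgMif, against 104 and 69.4 TPM in sgSCR. It was at 21.8 and 10.2 TPM in the libraries labelled shMif, against 5.68 and 6.30 TPM in shSCR. In sgSCR it ranked 1224 and 1910 among the 16309 genes tested, which is in the highest 7.51 and 11.7% by TPM. In the other 6 libraries it ranked between 5239 and 9591, or 32.1 to 58.8% from the top. The genes' order by TPM within a library is free of the choice of scaling between libraries.

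Cmklr1, the signalling receptor (ENSMUSG00000042190.12, chr5:113612354-113650426, minus strand), was at a low level in every group, at 0.713 to 2.15 TPM. It had 56 and 96 reads in sgMif, against 156 and 29 in sgSCR, and 78 and 87 in the libraries labelled shMif, against 69 and 128 in shSCR. This corresponded to 2.56 and 2.16 CPM in sgMif, against 3.92 and 1.45 CPM in sgSCR. Both sgMif libraries lay between the sgSCR libraries (log2 -0.20 ± 0.55, SE). Without sgSCR library 1 the log2 difference was 0.70, so 1 library decided its sign. The libraries labelled shMif had 4.02 and 2.47 CPM, against 1.79 and 2.58 CPM in shSCR, and these groups overlapped. Their log2 difference was 0.56 ± 0.55 (SE), with an adjusted p of 0.771 in edgeR. Group means of Cmklr1 were 2.36 CPM in sgMif and 2.68 CPM in sgSCR, and 3.25 CPM in the cells labelled shMif and 2.19 CPM in shSCR. From low to high the order was shSCR, sgMif, sgSCR and shMif, and each group overlapped the next. All reads were placed on Cmklr1-201 in 5 libraries, and 66.2 to 89.8% in the other 3.

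Gpr1 (ENSMUSG00000046856.13, chr1:63182691-63214543, minus strand) was the receptor with the fewest reads. It had 0 reads in both sgMif and both sgSCR libraries, 0 and 3 in the libraries labelled shMif, and 3 and 1 in shSCR. A count of 0 allows up to 3 reads, or 0.0676 to 0.150 CPM in the sgMif and sgSCR libraries, counting error only. The protein-coding transcript Gpr1-201 received 1.4 estimated reads in shMif library 2 and none elsewhere. A difference between groups was not detectable at this depth, and no fold change is given.

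Ccrl2, the receptor that holds chemerin without signalling (ENSMUSG00000043953.12, chr9:111054486-111057519, minus strand), had a higher TPM than Cmklr1 in every library but sgSCR library 1, where it was 0.830 times the Cmklr1 level. Its reads numbered 142 and 139 in sgMif, against 98 and 85 in sgSCR, and 224 and 152 in the libraries labelled shMif, against 371 and 382 in shSCR. Normalised, it had 6.48 and 3.13 CPM in sgMif, against 2.46 and 4.24 CPM in sgSCR, and these overlapped (log2 0.52 ± 0.55, SE). This difference was -0.08 without sgMif library 1, 0.97 without sgMif library 2, 0.97 without sgSCR library 2, 0.17 without sgSCR library 1 and 0.08 with length-scaled counts, so it had no settled sign. The libraries labelled shMif had 11.5 and 4.32 CPM, against 9.62 and 7.71 CPM in shSCR. The shSCR libraries lay between those labelled shMif, with a log2 difference of -0.13 ± 0.54 (SE) and an adjusted p of 0.956 in edgeR. This small difference changed sign to 0.41 without shMif library 2, to 0.03 without shSCR library 1 and to 0.26 in the 5 high-class libraries. shSCR was above sgSCR without overlap (log2 1.38 ± 0.55, SE, untested), the opposite order to that of Rarres2. With counts scaled by transcript length this difference was 0.76. Group means of Ccrl2 were 4.81 CPM in sgMif and 3.35 CPM in sgSCR, and 7.93 CPM in the cells labelled shMif and 8.67 CPM in shSCR. From low to high the order was sgSCR, sgMif, shMif and shSCR, and each group overlapped the next.

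Of the 3 genes tested, 0 passed in shMif against shSCR, where 0.0184% of all genes passed in edgeR. At an unadjusted p under 0.05 the count was 1, Rarres2, against 9.26% of all genes. In DESeq2 the count was 0, against 1.11% of all genes, with an adjusted p of 0.0540 for Rarres2. These p-values do not show that the receptors were alike in the groups.

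**Figure D2:**
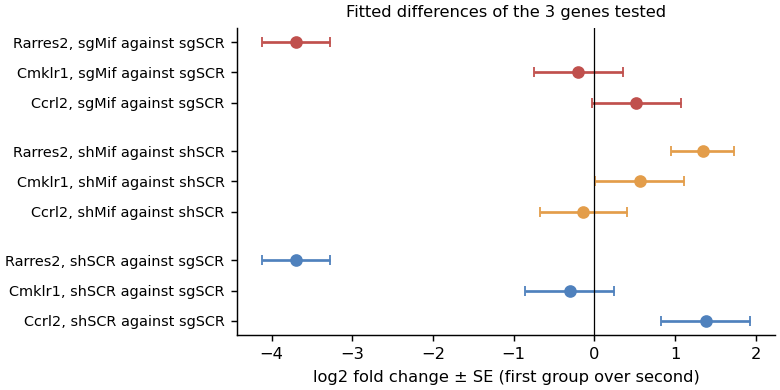
Fitted log2 fold change ± SE of the 3 genes tested, first-named group over second, for sgMif against sgSCR, shMif against shSCR and shSCR against sgSCR. Rarres2 is at -3.70 in both comparisons with sgSCR and at 1.34 in shMif against shSCR, while the Cmklr1 points lie between -0.31 and 0.56.

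Within a library the ligand and its receptors were set side by side in TPM. Rarres2 was 6.11 and 5.36 times the Cmklr1 level in sgMif, against 48.4 and 65.3 times in sgSCR. It was 12.7 and 10.3 times the Cmklr1 level in the libraries labelled shMif, against 7.97 and 6.05 times in shSCR. The ligand therefore exceeded its signalling receptor in all 8 libraries, most in sgSCR. The 3 receptors summed to 9.41 and 4.65 TPM in sgMif, against 3.94 and 10.7 TPM in sgSCR, so the groups overlapped. They summed to 12.9 and 7.08 TPM in the libraries labelled shMif, against 10.5 and 9.51 TPM in shSCR. Ccrl2 was the larger part of these sums except in sgSCR library 1, and its TPM rests in part on Ccrl2-202, a transcript of 569 bases that was assigned none of the gene's reads in sgSCR library 1 and 53.7% in sgSCR library 2.

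The short coding form carried most Rarres2 reads in every library. Among reads placed on coding transcripts, it held 90.0 and 74.5% in sgMif, against 81.9 and 74.2% in sgSCR. It held 83.5 and 93.0% in the libraries labelled shMif, against 97.4 and 74.7% in shSCR. The ranges overlapped, and the proportions were not tested. Rarres2-203, a long form that begins at the upstream first exon, had 0 and 24.4 estimated reads in sgMif, against 323 and 154 in sgSCR. It had 0 and 12.3 in the libraries labelled shMif, against 0 and 0 in shSCR. Rarres2-202, which keeps introns, held 5.98 and 5.35% of Rarres2 reads in sgMif, against 5.81 and 8.41% in sgSCR, and 4.23 and 5.75% in the libraries labelled shMif, against 3.68 and 2.77% in shSCR. These shares are Salmon's assignments among transcripts that overlap nearly throughout, and with 87 to 203 reads in 6 of the libraries a few reads move them.

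**Figure D3:**
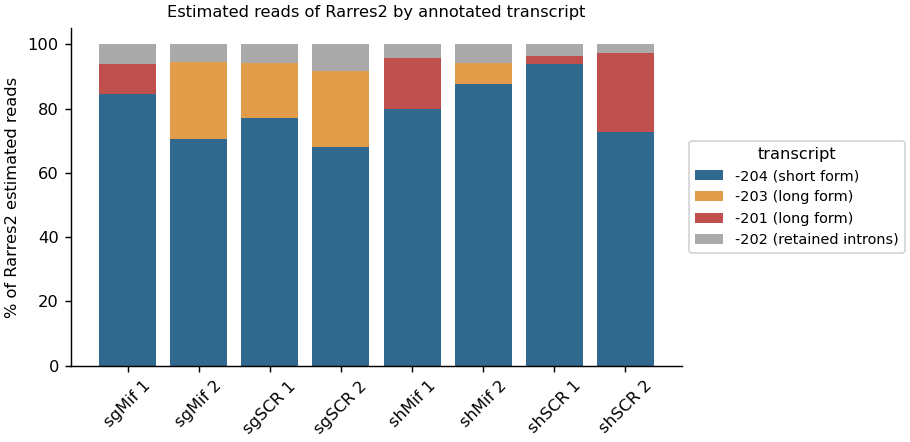
Share of Rarres2 estimated reads (percent) placed on each annotated transcript in each library. Rarres2-204, the short form, holds most reads in all 8 libraries, and Rarres2-203 is at 0 in both shSCR libraries.

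Genes that act on chemerin or around its receptors were described through 8 lists holding 98 genes, of which 76 were tested. In sgMif against sgSCR, 0 of the 76 rose and 3 fell (3.95%, against 0.987% of all genes). At an unadjusted p under 0.05 there were 31, against 16.6% of all genes, and in DESeq2 2 rose and 13 fell, where 481 and 507 of all genes did. In shMif against shSCR 0 passed in edgeR, with 16 at an unadjusted p under 0.05, against 9.26% of all genes. In DESeq2 3 rose and 1 fell there, where 128 and 53 of all genes did. The median log2 fold change of all genes was -0.01 in sgMif against sgSCR and 0.03 in shMif against shSCR. These values for all genes are also the background of the counts given for each list below. All lists were chosen with earlier results of these data known, and Rarres2 was chosen on the guide comparison. The counts are thus a description and no test of a list.

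The proteases that trim chemerin to its active form had a median log2 fold change of -0.83 in sgMif against sgSCR and 0.74 in shMif against shSCR over 8 tested of 15. None passed in edgeR in either comparison, with 4 and 1 at an unadjusted p under 0.05 and 2 and 1 called lower by DESeq2. Ctsl, a lysosomal cysteine protease known to act on chemerin, was the highest of them. It was at 951 and 937 CPM in sgMif, against 1393 and 1430 CPM in sgSCR (adjusted p = 0.114 in edgeR). It was at 1347 and 1132 CPM in the libraries labelled shMif, against 2665 and 2217 CPM in shSCR (adjusted p = 0.194 in edgeR). Plg, whose product plasmin trims chemerin, had 1 read in 1 library, and F11 and F12 of the contact system had 0 reads in all. Klkb1, also of the contact system, had reads in every library, from 0.343 CPM in shSCR library 2 to 6.58 CPM in sgSCR library 2.

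Proteases that destroy chemerin activity, a role known mainly from the human enzymes, had a median of -1.36 in sgMif against sgSCR and 2.31 in shMif against shSCR over 5 tested. None passed in edgeR, with 2 and 3 at an unadjusted p under 0.05. DESeq2 called 2 lower in sgMif and 1 higher in the libraries labelled shMif. Mcpt4, a mouse mast cell chymase, had 0 and 0.271 CPM in sgMif, against 3.37 and 1.89 CPM in sgSCR. It had 1.60 and 1.91 CPM in the libraries labelled shMif, against 0.233 and 0.464 CPM in shSCR. Mcpt4 thus lay without overlap on the same sides as Rarres2 in both comparisons (adjusted p = 0.115 and 0.531 in edgeR). So did Cma1, another chymase of the list, with 0 and 0.248 CPM in sgMif, against 2.14 and 1.45 CPM in sgSCR. Cma1 had 1.70 and 1.54 CPM in the libraries labelled shMif, against 0.156 and 0.404 CPM in shSCR (adjusted p = 0.160 and 0.527 in edgeR). Both genes were singled out after their values were seen, and Rarres2 was chosen on the guide comparison, so this match is a description. Mme, with the largest fold change of the 5 in shMif against shSCR, had 4.84 and 9.02 CPM against 0.856 and 1.07 CPM (adjusted p = 0.352 in edgeR). In sgMif Mme had 1.10 and 2.93 CPM, against 2.82 and 4.04 CPM in sgSCR, and these overlapped. Cpa3, a mast cell carboxypeptidase, had 0 and 0.225 CPM in sgMif, against 1.58 and 1.496 CPM in sgSCR. It had 2.78 and 1.05 CPM in the libraries labelled shMif, against 0.130 and 0.404 CPM in shSCR. All 4 tested mast cell markers had negative fold changes in sgMif against sgSCR and positive ones in shMif against shSCR, none of which passed in edgeR. DESeq2 called 1 lower in sgMif and none in the libraries labelled shMif, and at an unadjusted p under 0.05 there was 1 in each comparison. Their part in the Rarres2 values was not tested. Ace, a peptidase of vessel walls and the highest of these genes, had 12.9 and 10.2 CPM in sgMif, against 24.4 and 11.3 CPM in sgSCR. It had 67.0 and 61.4 CPM in the libraries labelled shMif, against 39.9 and 44.4 CPM in shSCR.

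In plasminogen activation, which makes plasmin, the median was -0.42 in sgMif against sgSCR and -0.23 in shMif against shSCR over 10 tested. None of them passed in edgeR or DESeq2, with 2 and 4 at an unadjusted p under 0.05. S100a10, a plasminogen receptor subunit and the highest of them, had 568 and 674 CPM in sgMif, against 577 and 498 CPM in sgSCR. The inhibitory G proteins, kinases and arrestins that act behind chemerin receptors had medians of 0.23 and 0.22 over 10 tested. None passed in edgeR, with 4 and 0 at an unadjusted p under 0.05, while DESeq2 called 1 higher and 1 lower in sgMif and none in the libraries labelled shMif. Gnai2, through which Cmklr1 signals, had 485 and 484 CPM in sgMif, against 387 and 391 CPM in sgSCR. In TPM these were 1237 and 2068 against 247 and 226, so the size of this difference depended on the scale.

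Transcription factors tied to the chemerin gene had medians of -0.18 in sgMif against sgSCR and 0.52 in shMif against shSCR over 11 tested of 14. None passed in edgeR, with 5 and 4 at an unadjusted p under 0.05, and DESeq2 called 1 higher in sgMif and none in the libraries labelled shMif. Cebpb, a factor of adipocytes and inflammation and the highest of them, had 239 and 175 CPM in sgMif, against 372 and 576 CPM in sgSCR (adjusted p = 0.310 in edgeR). It had 430 and 262 CPM in the libraries labelled shMif, against 91.5 and 321 CPM in shSCR (adjusted p = 0.675 in edgeR). In TPM the shSCR libraries were at 151 and 131, so their order depended on the scale. Retinoid genes were listed because Rarres2 is induced by retinoids. Of 14 tested, 0 rose and 1 fell in sgMif, with medians of -0.41 in sgMif against sgSCR and 0.28 in shMif against shSCR. The gene that fell was Cyp26b1, which breaks down retinoic acid, at 10.9 and 7.55 CPM in sgMif, against 60.3 and 85.1 CPM in sgSCR (log2 -2.98 ± 0.31, SE, adjusted p = 0.0148 in edgeR). It had 11.8 and 7.48 CPM in the libraries labelled shMif, against 14.1 and 11.7 CPM in shSCR, and did not pass there (adjusted p = 0.669 in edgeR). In the retinoid list 2 genes were called in shMif against shSCR by DESeq2, both higher, and 2 were at an unadjusted p under 0.05. Crabp1, a retinoic acid carrier, was the highest, with 624 and 810 CPM in sgMif, against 545 and 649 CPM in sgSCR.

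Other receptors for leukocyte attractants had medians of -1.28 in sgMif against sgSCR and 0.15 in shMif against shSCR over 12 tested of 14, with 0 higher and 1 lower in sgMif. That was Ackr3, a decoy receptor for CXCL12 that also binds MIF, at 62.7 and 69.9 CPM in sgMif, against 128 and 146 CPM in sgSCR (log2 -1.04 ± 0.18, SE, adjusted p = 0.0413 in edgeR). It had 125 and 108 CPM in the libraries labelled shMif, against 113 and 151 CPM in shSCR, and these overlapped. Adipokines other than chemerin had medians of -0.50 in sgMif against sgSCR and -0.23 in shMif against shSCR over 6 tested of 12, with 0 higher and 1 lower in sgMif. That was Angptl4, an inhibitor of lipoprotein lipase, at 18.8 and 11 CPM in sgMif, against 61.3 and 49.7 CPM in sgSCR (log2 -1.90 ± 0.28, SE, adjusted p = 0.0333 in edgeR). It had 23.5 and 17.6 CPM in the libraries labelled shMif, against 20.7 and 18.0 CPM in shSCR. In shMif against shSCR 0 attractant receptors and 0 adipokines passed in edgeR or DESeq2, with 0 and 2 at an unadjusted p under 0.05. Nampt, the adipokine with the highest level, had 93.9 and 124 CPM in sgMif, against 116 and 122 CPM in sgSCR.

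Markers of other cells that a tumour sort can hold were set beside the Rarres2 values, and their part in the result was not tested. Over 14 lists of 123 genes, 107 tested, 0 rose and 4 fell in sgMif against sgSCR, against 0.368 and 0.619% of all genes. At an unadjusted p under 0.05 there were 28, against 16.6% of all genes, and in DESeq2 1 rose and 20 fell, where 481 and 507 of all genes did. In shMif against shSCR 0 passed in edgeR, with 14 at an unadjusted p under 0.05, against 9.26% of all genes. In DESeq2 5 rose and 1 fell there, where 128 and 53 of all genes did. Macrophage markers, all 16 tested, summed to 157 to 159 CPM in sgMif, against 244 to 495 CPM in sgSCR, and 266 to 459 CPM in the libraries labelled shMif, against 272 to 308 CPM in shSCR. Of these 16, 14 had negative and 2 had positive fold changes in sgMif against sgSCR, with 1 negative and 15 positive in shMif against shSCR. Lyz2, the highest of them, had 64.5 and 30.6 CPM in sgMif, against 38.2 and 30.3 CPM in sgSCR, and so was not lower. The 2 of them that fell in sgMif were Cd163 and Mrc1, scavenger and mannose receptors of tissue macrophages. Cd163 had 0 reads in both sgMif libraries, against 103 and 24.9 CPM in sgSCR (adjusted p = 0.0333 in edgeR). Mrc1 had 2.01 and 5.59 CPM in sgMif, against 107 and 34.0 CPM in sgSCR (adjusted p = 0.0333 in edgeR). The libraries labelled shMif had 18.8 and 13.9 CPM of Mrc1, against 15.5 and 12.4 CPM in shSCR, all below sgSCR. Across the 4 groups Cd163 was at most 0.596 CPM outside sgSCR.

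Fibroblast and skin markers are given next. Dcn, a matrix proteoglycan of fibroblasts, had 307 and 192 CPM in sgMif, against 1238 and 1028 CPM in sgSCR (log2 -2.18 ± 0.23, SE, adjusted p = 0.0149 in edgeR). It had 545 and 566 CPM in the libraries labelled shMif, against 491 and 551 CPM in shSCR. The 10 skin fibroblast markers summed to 18880 to 19390 CPM in sgMif, against 18520 to 18870 CPM in sgSCR, and 14450 to 22360 CPM in the libraries labelled shMif, against 7387 to 10040 CPM in shSCR. Cdsn, a keratinocyte adhesion protein, had 0.365 and 0.451 CPM in sgMif, against 7.85 and 13.3 CPM in sgSCR (adjusted p = 0.0277 in edgeR). The libraries labelled shMif had 0.412 and 0.313 CPM of Cdsn, against 0 and 0.020 CPM in shSCR, so its level was high in sgSCR alone. The 8 keratinocyte markers summed to 2.74 to 4.08 CPM in sgMif, against 16.3 to 20.3 CPM in sgSCR, and 6.46 to 8.70 CPM in the libraries labelled shMif, against 5.37 to 5.86 CPM in shSCR. Krt5, which defines basal keratinocytes, had 0 reads in sgMif, sgSCR and shSCR.

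Adipocytes are a known source of chemerin. Their 8 markers summed to 38.0 to 46.0 CPM in sgMif, against 61.2 to 66.4 CPM in sgSCR, and 47.1 to 71.3 CPM in the libraries labelled shMif, against 32.2 to 39.4 CPM in shSCR. These sums did not overlap in either comparison, which by itself shows little with 2 libraries in each group. The highest was Pnpla2, a lipase that many cells express. Of the 7 tested, 2 had positive and 5 had negative fold changes in sgMif against sgSCR. In shMif against shSCR 7 were positive and 0 negative. Adipoq, which was listed with the adipokines and not with these 8, was at most 0.05 CPM in any library. The part of adipocytes in the Rarres2 values was not tested. Endothelial markers summed to 40.9 to 184 CPM in sgMif, against 272 to 282 CPM in sgSCR, and 59.7 to 170 CPM in the libraries labelled shMif, against 44.8 to 210 CPM in shSCR. Pecam1 alone set the direction of the guide sums, with 111 and 25.0 CPM in sgMif, against 246 and 261 CPM in sgSCR. The libraries labelled shMif had 154 and 37.0 CPM of Pecam1, against 195 and 20.8 CPM in shSCR. Pecam1 was thus at 111 to 261 CPM in the 5 libraries of high olfactory receptor counts and at 20.8 to 37.0 CPM in the 3 others. Both sgSCR libraries were of the high class and sgMif had 1 of each, and the part of this class was not tested. The other 9 of the 10 endothelial markers had positive fold changes in sgMif against sgSCR, with a median log2 fold change of 1.01 over the list, and none passed in edgeR or DESeq2 or at an unadjusted p under 0.05. Mesothelial markers summed to 10.7 to 16.7 CPM in sgMif, against 26.2 to 31.0 CPM in sgSCR, and 26.5 to 47.7 CPM in the libraries labelled shMif, against 45.2 to 52.7 CPM in shSCR. Upk1b, a mesothelial marker, had 0 reads in all libraries.

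Natural killer and dendritic cells carry Cmklr1 in other tissues. Natural killer cell markers summed to 2.05 to 4.08 CPM in sgMif, against 6.38 to 8.65 CPM in sgSCR, and 6.74 to 25.5 CPM in the libraries labelled shMif, against 6.30 to 9.78 CPM in shSCR. Dendritic cell markers summed to 23.4 to 39.6 CPM in sgMif, against 30.9 to 41.0 CPM in sgSCR, and 40.3 to 88.8 CPM in the libraries labelled shMif, against 33.8 to 44.8 CPM in shSCR. Plasmacytoid dendritic cell markers, mostly Bst2, summed to 65.2 to 69.7 CPM in sgMif, against 107 to 130 CPM in sgSCR, and 159 to 231 CPM in the libraries labelled shMif, against 90.9 to 248 CPM in shSCR. In shMif library 1, where Cmklr1 was highest at 4.02 CPM and Ccrl2 at 11.5 CPM, the natural killer cell sum was also the highest of all libraries. Ptprc at 24.8 CPM and the macrophage marker Lyz2 at 144 CPM were highest in that library too, so this was not particular to natural killer cells. sgSCR library 1 had 3.92 CPM of Cmklr1, while the natural killer cell sums in sgSCR were at most 8.65 CPM. This match in 1 library was seen in the values and was not tested. T cell markers summed to 2.79 to 9.63 CPM, neutrophil markers to 5.01 to 37.6 CPM and mast cell markers, mostly Gata2, to 49.0 to 75.1 CPM over all libraries. B and plasma cell markers summed to 3.81 to 13.9 CPM in sgMif, against 27.5 to 86.8 CPM in sgSCR, and 7.68 to 57.3 CPM in the libraries labelled shMif, against 9.81 to 14.8 CPM in shSCR. Of the 8 neutrophil markers 6 were tested, while Ly6g and Camp had 0 reads in all libraries. S100a9, another of the 8, had 1.34 CPM in shMif library 2 to 21.2 CPM in shSCR library 1.

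**Figure D4:**
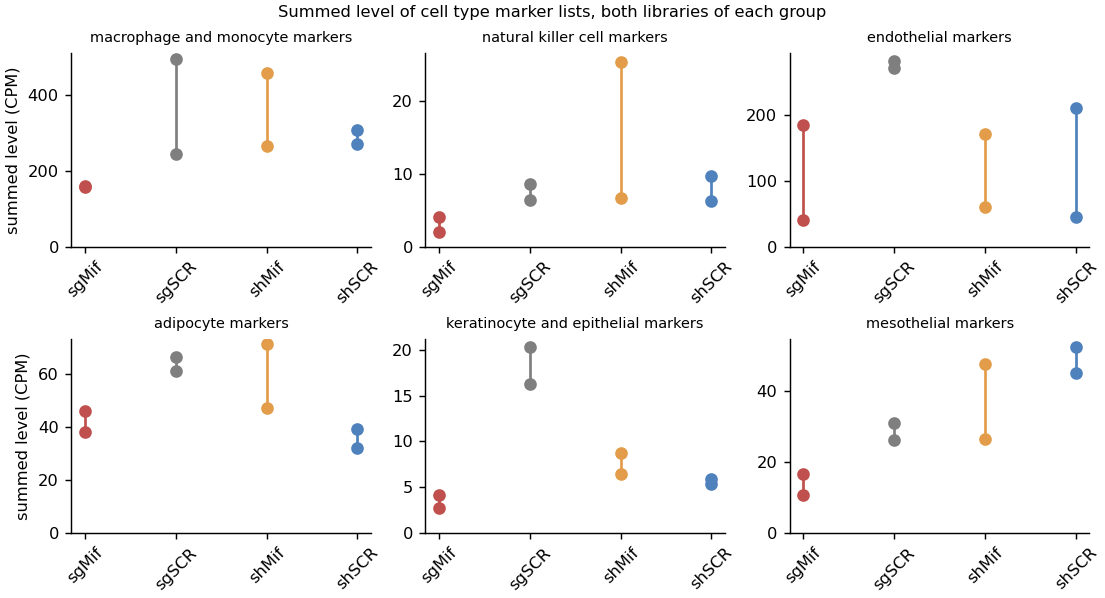
Summed level in CPM of 6 marker lists in both libraries of each group; a line joins the libraries of a group and each panel has its own axis. Keratinocyte sums are highest in sgSCR, at 16.3 to 20.3 CPM, and the highest mesothelial sum, 52.7 CPM, is in shSCR. The endothelial sums are highest in sgSCR through Pecam1 alone, which was higher in every library of high olfactory receptor counts than in the others.

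Genes whose pattern was most like that of Rarres2 were named by Pearson's r of log2 CPM over the 8 libraries among 11036 genes. They were Ubxn6, Ccl8, Aebp1, Ugt1a6a, Hmcn2, Dram1, Ccl11, Angptl4, Bloc1s3 and Rsrp1, with r of 0.984 for Ubxn6 to 0.947 for Rsrp1, against a median of -0.106 for all genes. In all 10 both sgSCR libraries were the highest, and over the 6 libraries outside sgSCR r was 0.703 to 0.952. Both follow in part from the choice, since the 10 were picked for high r over all 8 libraries, which include these 6. The libraries share their group structure and depth, so r is a description. Ccl8, a chemokine for monocytes, had 1.55 and 1.47 CPM in sgMif, against 45.6 and 18.1 CPM in sgSCR. It had 5.46 and 1.54 CPM in the libraries labelled shMif, against 1.01 and 1.19 CPM in shSCR. Ccl11, the eosinophil attractant eotaxin, had 1.55 and 0.857 CPM in sgMif, against 15.2 and 10.8 CPM in sgSCR. Ccl11 had 2.42 and 2.70 CPM in the libraries labelled shMif, against 1.06 and 0.525 CPM in shSCR.

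**Figure D5:**
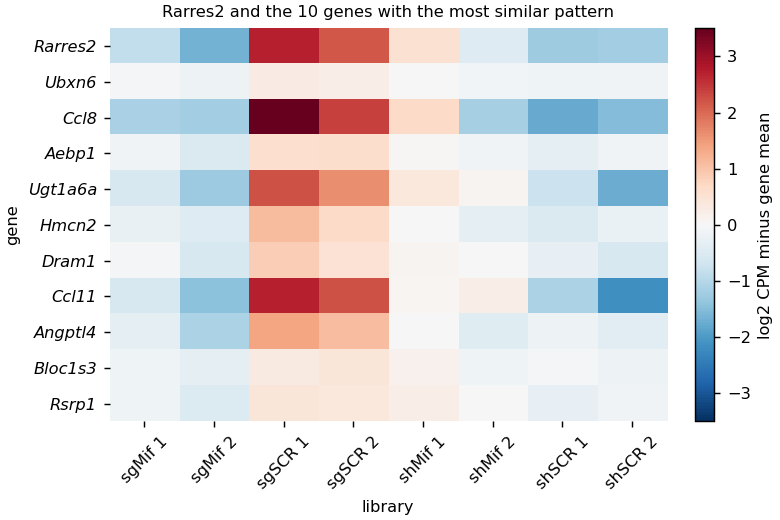
Log2 CPM minus each gene's mean over the 8 libraries, for Rarres2 and the 10 genes with the highest r. Red marks levels above the gene's mean, and both sgSCR columns are the highest in every line, with Rarres2, Ccl8 and Ccl11 spanning the widest range.

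The receptors followed other genes. Rarres2 had r = 0.226 with Cmklr1 and -0.404 with Ccrl2, and Cmklr1 had r = 0.032 with Ccrl2, all over the same 8 libraries. Closest to Cmklr1 were Ndufaf3 at 0.976 and Tmem115 at 0.925, and closest to Ccrl2 were Vps28 at 0.970, Stac at 0.952 and Glp1r at 0.952. None of the 10 genes closest to Cmklr1 or Ccrl2 was among the 10 closest to Rarres2.

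Protein-coding genes within 100 kb of the 4 genes were compared in the same fit. Of 21 such neighbours, 16 were tested and 0 passed in either comparison in edgeR. At an unadjusted p under 0.05 there were 4 in sgMif against sgSCR and 3 in shMif against shSCR, against 16.6 and 9.26% of all genes. DESeq2 called 2 lower in sgMif, where 507 of all genes were, and none in the libraries labelled shMif. Around Rarres2, 8 of 9 were tested. Lrrc61 overlaps Rarres2 by 1027 bases on the opposite strand, and since strandedness is not given, reads of the overlap cannot be told apart. It had 2.10 and 2.95 CPM in sgMif, against 2.97 and 3.54 CPM in sgSCR (log2 -0.36 ± 0.39, SE, adjusted p = 0.681 in edgeR). Gimap8, an immune cell gene 74445 bases away, had 3.19 and 2.16 CPM in sgMif, against 7.75 and 10.8 CPM in sgSCR (adjusted p = 0.123 in edgeR), and was singled out after its values were seen.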

How the data were processed

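RNA from sorted mouse sarcoma cells was sequenced in 8 libraries, 2 in each group. TRIzol was used for RNA, per the labels' protocols. Trimmomatic, Salmon and build mm10 are named in the submitters' processing notes, which give no version, option, transcript release or strandedness. Per the file headers, the authors' deposited tables hold an estimated count and a TPM value for each of 116546 transcripts. Through GENCODE release M21, 115977 transcripts matched a gene, and the other 569 (0.101 to 0.205% of reads) were left out.

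Here estimated counts were summed over each gene's transcripts and rounded, genes were kept at a minimum count of 10 and minimum total of 15, and the 16309 left were fitted with edgeR 4.0.16 in R 4.3.3. One quasi-likelihood fit held 4 group means, TMM scaling and 4 residual degrees of freedom, with Benjamini-Hochberg adjustment at 0.05 over all genes. CPM values are TMM-scaled, TPM values are the authors', and intervals from counts of 0 (3 reads) cover counting error only. DESeq2 1.42.0 was an alternative, with others described under sensitivity. Fits were tested on simulated data.

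The 4 genes and the gene lists were chosen with earlier results of these data known. The genes named are those past the threshold in a list (up to 4), the member of each list with the highest level, the marker with the largest difference, the 10 genes most alike by r (mean log2 CPM of at least 1, prior count 0.5), and neighbours within 100 kb. Not every gene the rule gives is printed, and 3 of the 4 members had an entry in the promoter table, which was not used. Python 3.11.15 with pandas 2.3.3 and numpy 2.4.6 joined the tables.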

Additional observations from a re-analysis of the deposited data

Results flagged for a closer look

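Rarres2 lay on opposite sides of its controls in the guide and the hairpin experiments. Its log2 fold change was -3.70 in sgMif against sgSCR, where both sgMif libraries were below both sgSCR libraries. It was 1.34 in shMif against shSCR, where both libraries labelled shMif were above both shSCR libraries, a difference that did not pass (adjusted p = 0.456 in edgeR, and 0.195 to 1.00 when each library was left out). The difference between these effects was not tested, because Rarres2 was chosen for its level in the guide experiment. Mif in the libraries labelled shMif lay within the range of the shSCR libraries. With 2 libraries in a group, no library could be set apart from its group.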

How the results depend on the processing

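The log2 fold change of Rarres2 in sgMif against sgSCR was -4.13 to -3.33 when each library was left out and -3.72 to -3.34 under the other settings. In shMif against shSCR it was 0.78 to 1.75 when each library was left out (adjusted p of 0.195 to 1.00) and 1.25 to 1.78 otherwise, and it passed without a filter on low counts (1.31). The value in the 5 high-class libraries (1.78) sets 1 library against 1, with 1 residual degree of freedom from the sgSCR pair, so its p is not used. shSCR against sgSCR gave -3.38 with library class as a term. For Ccrl2 in shMif against shSCR the value turned to 0.26 in the high-class libraries, 0.41 without shMif library 2 and 0.03 without shSCR library 1, within a range of -1.0 to 0.41 when each library was left out. Ccrl2 in shSCR against sgSCR was 0.76 with length-scaled counts. Cmklr1 passed in no setting, with 0.18 to 0.87 in shMif against shSCR when each library was left out. Without sgSCR library 1, Cmklr1 was 0.70 in sgMif against sgSCR and 0.60 in shSCR against sgSCR.

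The number of genes called in sgMif against sgSCR, 161, became 988 in DESeq2, 1494 without a filter, 18 with length-scaled counts, 534 in the high-class libraries and 49 with library class as a term, and 0 to 356 when each library was left out. It was 0 without sgMif library 2, sgSCR library 1 or sgSCR library 2, 2 without sgMif library 1, 39 without shMif library 2, 54 without shMif library 1, 326 without shSCR library 2 and 356 without shSCR library 1. In shMif against shSCR 3 genes became 181 in DESeq2, 662 without a filter, 5 with length-scaled counts, 0 with each system fitted alone, 1162 in the high-class libraries and 7 with library class as a term, and 0 to 758 when each library was left out (0 without shMif library 2, 758 without shSCR library 2). The cause was not tested.

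Replicate numbers marked no shared animal or batch in the labels, and same-numbered libraries had correlated deviations of 0.167 (sgMif with sgSCR) and 0.242 (libraries labelled shMif with shSCR) over 16309 genes. With the replicate block, 263 genes were called in sgMif against sgSCR and 14 in shMif against shSCR, and Rarres2 in shMif against shSCR was 1.27 (adjusted p = 0.310 in edgeR). A group left with 1 library was given the spread of the other groups. Depth limits Gpr1, with at most 3 reads, and the transcript shares of Rarres2. Cmklr1 and Ccrl2 did not pass with the block.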
